A study of Saccharomyces cerevisiae with 2 samples.

Results

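Proteins that are secreted, or that live in the membranes of the secretory route, enter the endoplasmic reticulum (ER) and then travel to the Golgi in coated vesicles. Of 5449 yeast genes measured, 50 genes of this machinery are described here. They were picked by their known role, with earlier results of these data known but by no threshold on a measured value, and fall into 7 steps: the ER membrane translocon (7 genes), the signal recognition particle (6), signal peptidase (4), the COPII coat (7), cargo receptors of the vesicle membrane (9), the COPI coat with its ARF GTPases (9), and vesicle tethering and fusion (8). Each gene was read by 1 probe set, and none of these probe sets carries the suffix letter that marks possible cross-hybridization.

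As background, the signal sequence of a new protein is bound by the signal recognition particle or left to cytosolic chaperones, the chain is threaded through the Sec61 channel, and signal peptidase removes the signal on the inner side. COPII vesicles carry cargo forward to the Golgi, and COPI vesicles bring receptors and escaped ER proteins back. SNARE proteins then fuse each vesicle with its target membrane.

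The study compared yeast that depends on a temperature-sensitive allele of ACS2, acs2-Ts1, with yeast that has wild-type ACS2, which encodes an enzyme that makes acetyl-CoA from acetate outside mitochondria. The acs2-Ts1 strain is YHT652 and carries the allele on the plasmid pHT215, and the ACS2 strain is YHT651 and carries the normal gene on pHT112-1; both plasmids are centromeric and marked with URA3. All other stated features are shared: the background BY4741, mating type MATa, the alleles his3delta1, leu2delta0, met15delta0 and ura3delta0, a chromosomal acs2 deletion marked with HygMX, growth in YPD, and 60 min at 37 °C before harvest. Both titles say WT, so the groups follow the genotype field.

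Each strain is represented by 1 deposited sample of intensities, the authors' mean of 2 Affymetrix arrays, so no test, error or p-value can be given and every difference is one between these 2 samples. No sample at a lower temperature was analysed here, so a difference due to strain or plasmid cannot be told apart from one due to heat inactivation of the enzyme. ACS2 itself read 12426 in acs2-Ts1 and 10257 in ACS2, which does not check the labels because both strains carry the gene. LEU2, deleted in both strains, read 77.5 in acs2-Ts1 and 68.0 in ACS2, and STE3, for a receptor made by cells of mating type alpha, read 59.0 in acs2-Ts1 and 214 in ACS2. These values lie above the background limits of 46.3 in acs2-Ts1 and 49.1 in ACS2, so neither gene was at background although the genotype would put it there. HIS3, carried as his3delta1 in both strains, read 882 in acs2-Ts1 and 1650 in ACS2, far above the limits. How much of HIS3 this allele removes is not stated in the labels, so its values do not check them. Transcripts were lower across the genome in acs2-Ts1, with a median log2 ratio of acs2-Ts1 over ACS2 of -1.12 over all genes, and this level rests on the authors' scaling to control probe sets. As a yardstick, 27 hybridization controls had log2 ratios between -0.45 and 0.27 with an SD of 0.17, but they may be among the controls used for the scaling. The 3′ to 5′ intensity ratio of the ACT1 control probe sets, a usual sign of RNA integrity, was 1.37 in acs2-Ts1 and 1.42 in ACS2. Less transcript in each cell and fewer cells holding it cannot be told apart in RNA from a whole culture. Values below the 95th percentile of probe sets for genes of another yeast, 46.3 in acs2-Ts1 and 49.1 in ACS2, were treated as not above background. Ratios also depended on brightness, so a lowess curve of log2 ratio on mean log2 intensity over all genes was subtracted as an alternative, called here the value with the trend removed.

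Of the 50 secretory genes, 49 were lower in acs2-Ts1, beside 86.4% of the whole genome, and 1, SEC61, was slightly higher. At least 2-fold lower were 24 genes (48.0%), against 55.9% of all measured genes, and 0 were at least 2-fold higher, against 3.67% of all genes. The median log2 ratio of the 50 genes was -0.98, which lies 0.14 above the all-gene median on the log2 scale. The share that was at least 2-fold lower is thus near that of the genome, and the values below concern how the 50 genes differ among themselves. Their log2 ratios ran from -2.12 for SPC2 to 0.12 for SEC61.

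**Figure D1:**
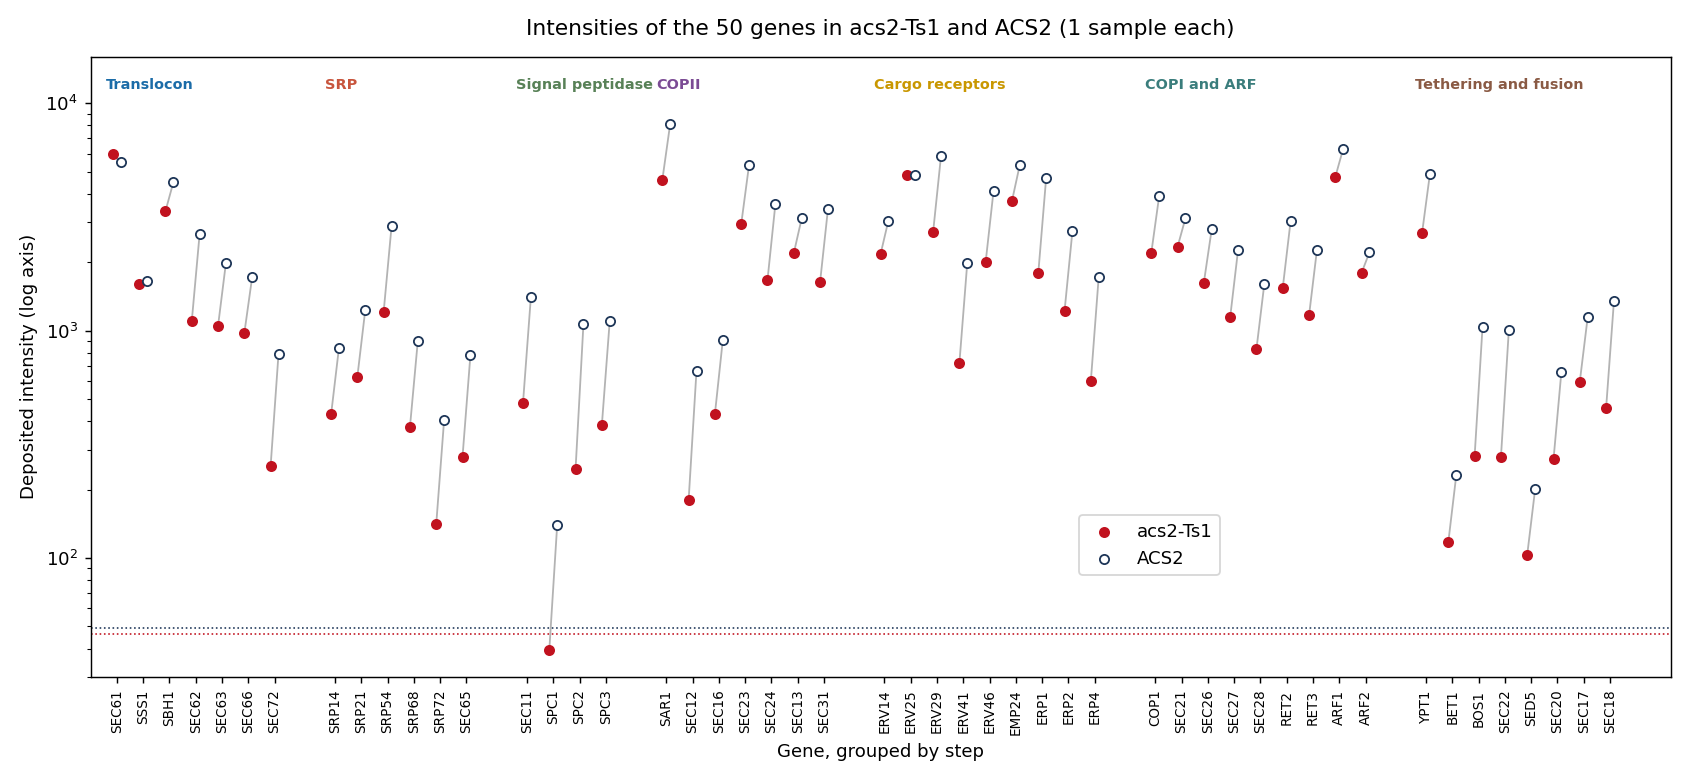
Deposited intensity of each of the 50 genes on a log axis, with acs2-Ts1 as a filled red point to the left and ACS2 as an open blue point to the right, joined by a line; dotted lines mark the background limits of 46.3 (acs2-Ts1, red) and 49.1 (ACS2, blue). The line rises from left to right for 49 genes, is nearly flat for SSS1 and ERV25, and slopes the other way for SEC61, and SPC1 in acs2-Ts1 is the single point under its limit.

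Most of the 50 genes lay between 1.5-fold and 3-fold lower. With a threshold of 1.5-fold, 40 of 50 (80.0%) were lower, against 72.0% of all genes, and with a threshold of 3-fold 6 of 50 (12%) were, against 25.8%. None was higher at either threshold, while 6.04% of all genes were at least 1.5-fold and 1.58% at least 3-fold higher. Many genes sit close to the 2-fold line: 17 were between 1.8-fold and 2.2-fold lower, 12 of them just under 2-fold and 5 just over it. A small shift in scale would thus change the count of 24 more than it would change the ratios. Centred on the all-gene median instead, 0 of 50 were at least 2-fold lower, against 6.61% of all genes, and 3 (SEC61, SSS1 and ERV25) were at least 2-fold higher, against 16.4%.

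**Figure D2:**
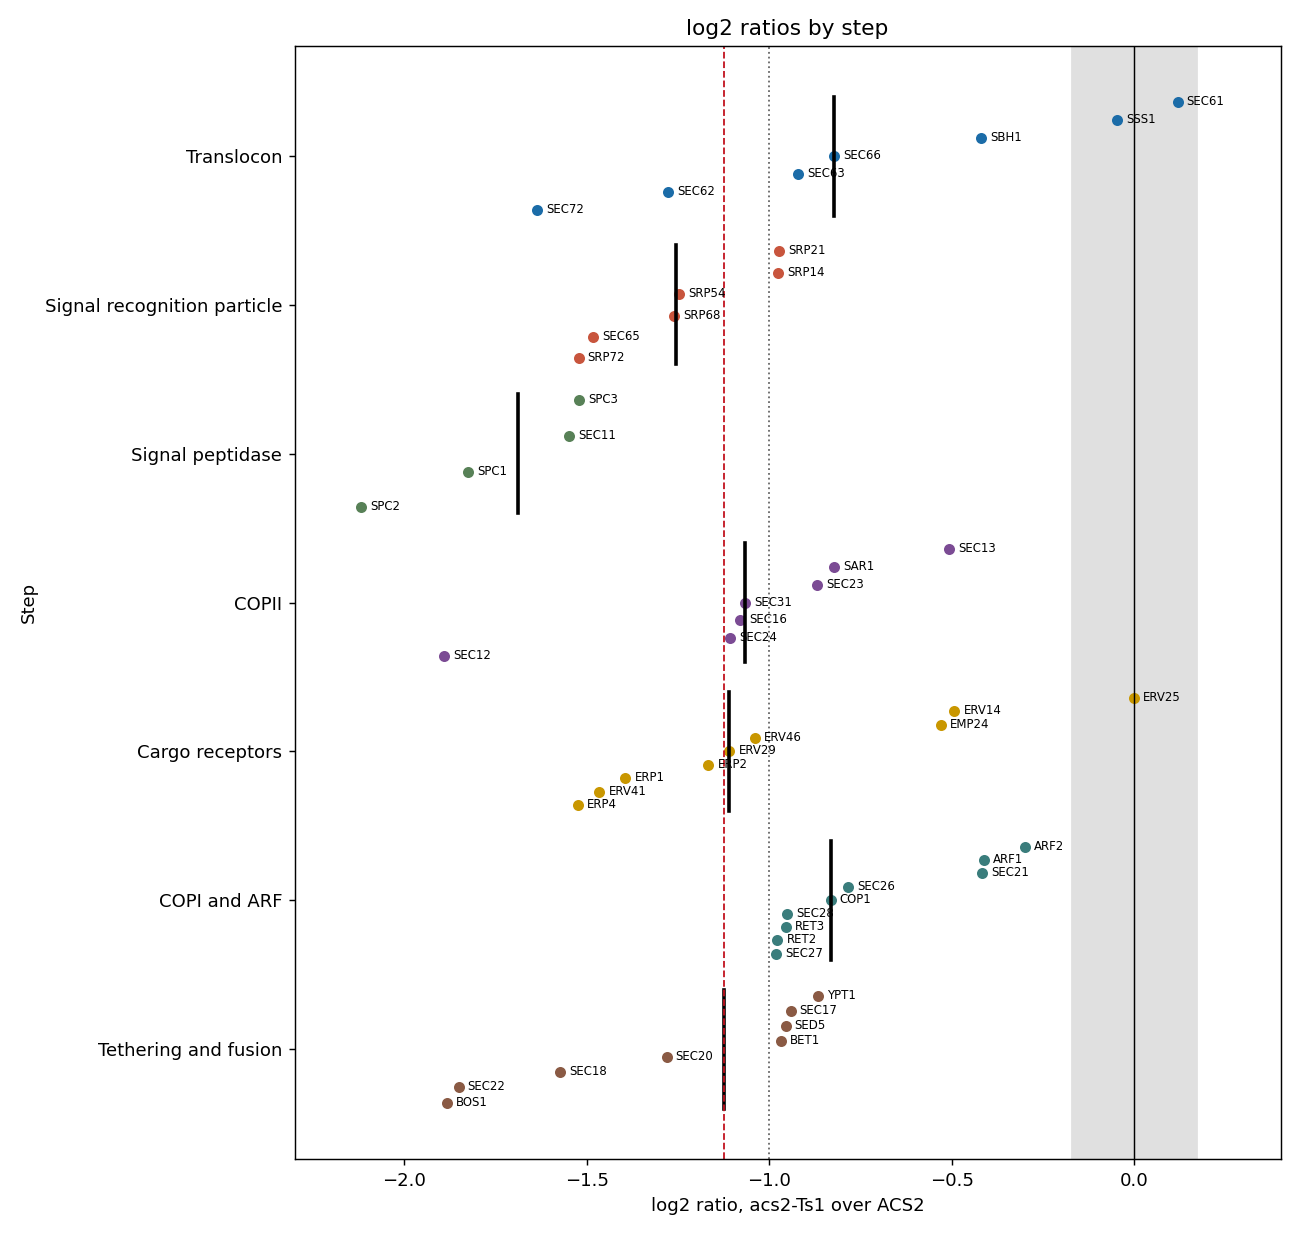
log2 ratio of acs2-Ts1 over ACS2 (x axis) for each gene, 1 row per step, with the median of the step as a black bar; the red dashed line is the all-gene median of -1.12, the dotted line a 2-fold lower level, and the grey band 1 SD (0.17) of the hybridization controls around 0. Signal peptidase, with SPC1 at its measured value, lies wholly to the left of the all-gene median and the COPI row wholly to its right, and only SEC61, SSS1 and ERV25 lie in the grey band.

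Within the translocon, SEC61 and SSS1 of the channel were near their ACS2 level as deposited, and SBH1 was somewhat lower. The partners that serve post-translational import were lower still. SEC61 (YLR378C), which encodes the pore of the channel, read 5957 in acs2-Ts1 and 5489 in ACS2, a log2 ratio of 0.12. SSS1 (YDR086C), for the small gamma subunit that clamps the pore, read 1602 in acs2-Ts1 and 1656 in ACS2, a log2 ratio of -0.05. Both ratios lie within 1 SD of the hybridization controls, so neither difference exceeds the spread of those controls. SBH1 (YER087C-B), for the beta subunit, read 3353 in acs2-Ts1 and 4488 in ACS2, 1.34-fold lower. As deposited, 88.6% of genes had a lower ratio than SEC61, 85.4% a lower one than SSS1 and 76.9% a lower one than SBH1. These genes are bright, at the 95.2, 83.4 and 92.8 percentiles of intensity. With the trend removed, 70.2% of genes lay below SEC61, 83.8% below SSS1 and 50.3% below SBH1, so SBH1 was then in the middle of the genome.

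The partners of the channel gave another picture. SEC62 (YPL094C), which encodes a membrane protein that receives finished chains, had 1099.7 in acs2-Ts1 and 2665 in ACS2, 2.42-fold lower. SEC72 (YLR292C), for a peripheral subunit of the Sec63 complex, read 254 in acs2-Ts1 and 789.5 in ACS2, 3.11-fold lower, the lowest ratio of this step. SEC63, whose product holds the J domain that calls the chaperone Kar2 to the channel, read 1049 in acs2-Ts1 and 1987 in ACS2, and SEC66, for another subunit, read 975 in acs2-Ts1 and 1726 in ACS2. These were 1.89-fold and 1.77-fold lower and so did not reach 2-fold. The median log2 ratio of the 4 partner genes was -1.10, close to the all-gene median, against -0.05 for the 3 channel genes. That gap of 1.05 was found by splitting the step along the known complexes with the values in view, and it is a description. With the trend removed, the medians were 0.35 for the channel genes and -0.22 for the partner genes, a smaller gap of 0.57, and SEC66 (0.10) lay above SBH1 (-0.0092).

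The paralogues of the channel can be set beside it. SSH1, for a second channel protein related to Sec61, read 3251 in acs2-Ts1 and 4786 in ACS2, a log2 ratio of -0.56. SBH2, for the beta subunit that pairs with Ssh1, read 4084 in acs2-Ts1 and 3706 in ACS2, a log2 ratio of 0.14. Neither gene of the Ssh1 channel was 2-fold lower, as was the case for the 3 genes of the Sec61 complex. SSH1 and SBH2 both lie in the brightest intensity decile, where only 6.42% of all genes were at least 2-fold lower. With the trend removed, SSH1 was at -0.15 and SBH2 at 0.55.

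All 6 protein genes of the signal recognition particle were lower, 4 of them at least 2-fold, with a median log2 ratio of -1.25. SRP54 (YPR088C), for the GTPase that binds the signal sequence, read 1210.0 in acs2-Ts1 and 2874 in ACS2, 2.37-fold lower. SEC65 (YML105C), the yeast counterpart of mammalian SRP19, had 279 in acs2-Ts1 and 780.4 in ACS2, 2.80-fold lower. SRP68 and SRP72 encode a bound pair: SRP68 had 377 in acs2-Ts1 and 904 in ACS2, and SRP72 had 141 in acs2-Ts1 and 406 in ACS2. Their ratios, 2.40-fold and 2.87-fold lower, differ by 0.26 on the log2 scale, little more than the control SD, and by -0.0075 (SRP68 minus SRP72) with the trend removed. The subunits of the domain that slows elongation lay just under 2-fold: SRP14 read 428 in acs2-Ts1 and 841 in ACS2, 1.97-fold lower, and SRP21 read 628 in acs2-Ts1 and 1233 in ACS2, 1.96-fold lower. The whole step spans 0.55 on the log2 scale, the tightest of the 7 as deposited. With the trend removed it ran from -0.47 to 0.17, wider than signal peptidase, which ran from -0.93 to -0.39.

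Signal peptidase was the step with the lowest median ratio as deposited. All 4 genes were counted as at least 2-fold lower in acs2-Ts1, though the call for SPC1 is uncertain. The median log2 ratio was -1.69 with SPC1, which lies under background in acs2-Ts1, at its measured value. It was -1.57 with SPC1 set to the background limit and -1.55 without SPC1. SEC11 (YIR022W), for the catalytic subunit, read 480.4 in acs2-Ts1 and 1406 in ACS2, 2.93-fold lower. SPC3 (YLR066W), whose product is needed with Sec11 for cleavage, read 385 in acs2-Ts1 and 1105 in ACS2, 2.87-fold lower. The genes with catalytic roles thus had nearly the same ratio. The accessory subunit gene SPC2 (YML055W) had the lowest ratio of all 50 genes, with 247 in acs2-Ts1 and 1072 in ACS2, 4.34-fold lower, and only 6.70% of measured genes had a lower one. SPC1 (YJR010C-A), the other accessory subunit gene, read 39.3 in acs2-Ts1, under the background limit, and 139 in ACS2. No fold is given for SPC1, but its ACS2 value is more than 2-fold above the limit of acs2-Ts1, so it was counted among the lower genes. That value lies below the 214 of STE3 in ACS2, a gene that the genotype would put at background, so this call is uncertain. SEC11, SPC2 and SPC3, the genes above background, also lay below the curve, at -0.48, -0.93 and -0.39.

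COPII genes had a median log2 ratio of -1.07, with 4 of 7 at least 2-fold lower, and SEC12 had the lowest ratio as deposited. SEC12 (YNR026C), for the ER membrane exchange factor that loads Sar1 with GTP, read 179.7 in acs2-Ts1 and 667 in ACS2, 3.71-fold lower. SAR1 (YPL218W), for the GTPase itself, read 4598 in acs2-Ts1 and 8127 in ACS2, 1.77-fold lower. The log2 ratios of this enzyme and its substrate differ by 1.07 as deposited. With the trend removed that gap is gone, with -0.57 for SEC12 and -0.62 for SAR1, the lowest of the step. SED4, a relative of SEC12, read 1029 in acs2-Ts1 and 2315 in ACS2, a log2 ratio of -1.17.

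The coat layers differed less. In the inner coat, SEC23, for the GTPase-activating subunit, read 2934 in acs2-Ts1 and 5361 in ACS2, and SEC24, for the main cargo-binding subunit, read 1668 in acs2-Ts1 and 3593 in ACS2. They were 1.83-fold and 2.15-fold lower. In the outer cage, SEC31 read 1633 in acs2-Ts1 and 3418 in ACS2, 2.09-fold lower. SEC13, whose product also serves in the nuclear pore, read 2187 in acs2-Ts1 and 3112 in ACS2, 1.42-fold lower, and had the highest ratio of the step. SEC16, for the scaffold of ER exit sites, read 429.7 in acs2-Ts1 and 908 in ACS2, 2.11-fold lower. Of the Sec24 relatives, SFB2 read 676 in acs2-Ts1 and 1037 in ACS2, a log2 ratio of -0.62, and SFB3 read 1146 in acs2-Ts1 and 2269 in ACS2, a log2 ratio of -0.99. On the scale relative to the all-gene median, SEC12 alone of the 7 genes was below 0, at -0.77.

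The cargo receptors were the most divided of the vesicle steps as deposited, with log2 ratios from -1.52 to -0.0020 and a median of -1.11. At least 2-fold lower were 6 of 9. With the trend removed, the fusion genes spread slightly more widely, from -0.71 to 0.50, than the receptors, from -0.84 to 0.31. The p24 proteins, which form complexes that select lipid-anchored cargo, split between them. ERV25 (YML012W) read 4817 in acs2-Ts1 and 4823 in ACS2, a log2 ratio of -0.0020, and EMP24 (YGL200C) read 3717 in acs2-Ts1 and 5368 in ACS2, 1.44-fold lower. Their complex partners were lower by more than 2-fold: ERP1 (YAR002C-A) read 1783 in acs2-Ts1 and 4687 in ACS2, 2.63-fold lower, and ERP2 (YAL007C) read 1219.5 in acs2-Ts1 and 2739 in ACS2, 2.25-fold lower. The log2 ratios of ERV25 and ERP1, parts of one complex, thus differ by 1.39. ERP4, another p24 protein gene, had the lowest ratio of the receptors, with 599.9 in acs2-Ts1 and 1725 in ACS2, 2.88-fold lower.

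The p24 relatives outside the 50 genes all had negative ratios. ERP3 read 141 in acs2-Ts1 and 515 in ACS2, ERP5 read 896 in acs2-Ts1 and 1465 in ACS2, and ERP6 read 441 in acs2-Ts1 and 1008 in ACS2. Their log2 ratios were -1.87, -0.71 and -1.19, so the ratio of ERP3 was lower than that of any p24 gene among the 50.

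Among the other receptors, ERV29 (YGR284C), which sorts soluble secretory proteins, read 2709 in acs2-Ts1 and 5845 in ACS2, 2.16-fold lower. ERV41 and ERV46 encode a bound pair that retrieves ER proteins: ERV41 read 719.9 in acs2-Ts1 and 1988 in ACS2, and ERV46 read 2007 in acs2-Ts1 and 4123 in ACS2. ERV41 was 2.76-fold and ERV46 2.05-fold lower, a difference of 0.43 on the log2 scale that came to 0.03 with the trend removed. ERV14 (YGL054C), for a receptor of membrane proteins, read 2166 in acs2-Ts1 and 3048 in ACS2, 1.41-fold lower. Its paralogue ERV15 read 452 in acs2-Ts1 and 1235 in ACS2, a log2 ratio of -1.45 against -0.49 for ERV14. With the trend removed that gap was smaller, with -0.35 for ERV15 and 0.13 for the brighter ERV14.

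COPI was the step in which no gene reached a 2-fold difference, 0 of 9, and all 9 lay above the all-gene median. These genes are bright, at the 78.1 to 94.9 percentiles of intensity. Of all genes, 36.9% were at least 2-fold lower in the second brightest intensity decile and 6.42% in the brightest. With the trend removed, 6 of the 9 COPI genes lay below the curve, and their median was -0.12. The coatomer is a complex of 7 subunits that is recruited to membranes as a unit, and its genes spanned 0.57 on the log2 scale with a median of -0.95. SEC27 (beta-prime subunit) read 1144 in acs2-Ts1 and 2259.7 in ACS2, and RET2 (delta) read 1541 in acs2-Ts1 and 3035 in ACS2. RET3 (zeta) read 1165 in acs2-Ts1 and 2259.6 in ACS2, and SEC28 (epsilon) read 830.1 in acs2-Ts1 and 1607 in ACS2. These 4 genes were 1.94-fold to 1.98-fold lower, closer to each other than the control SD. COP1 (alpha) read 2196 in acs2-Ts1 and 3911 in ACS2, 1.78-fold lower, and SEC26 (beta) read 1627 in acs2-Ts1 and 2801 in ACS2, 1.72-fold lower. SEC21 (gamma) stood above the rest of the complex, with 2338 in acs2-Ts1 and 3121 in ACS2, 1.33-fold lower.

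The ARF GTPases recruit the coatomer, and their ratios were near that of SEC21. ARF1 (YDL192W) read 4739 in acs2-Ts1 and 6311 in ACS2, 1.33-fold lower. ARF2 (YDL137W), its near-identical and redundant partner, read 1797 in acs2-Ts1 and 2211 in ACS2, 1.23-fold lower. With the trend removed the order was ARF2 (0.45), SEC21 (0.18) and ARF1 (-0.16). Both signals could include transcripts of the other gene, and how far they do was not tested.

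For tethering and fusion, 4 of 8 genes were at least 2-fold lower and the median log2 ratio was -1.13, beside -1.12 for all genes. YPT1 (YFL038C), for the Rab GTPase of this step, read 2687 in acs2-Ts1 and 4900.1 in ACS2, 1.82-fold lower. The SNARE genes were divided. BOS1 (YLR078C) read 282 in acs2-Ts1 and 1039.7 in ACS2, 3.69-fold lower, and SEC22 (YLR268W) read 278 in acs2-Ts1 and 1003 in ACS2, 3.61-fold lower. The products of BET1 and SED5 join Bos1 and Sec22 in one fusion complex at the Golgi. BET1 read 118 in acs2-Ts1 and 231 in ACS2, 1.96-fold lower, and SED5 read 103 in acs2-Ts1 and 200.5 in ACS2, 1.94-fold lower. The 4 genes of that complex thus fall into a lower pair, BOS1 and SEC22, and a higher pair, BET1 and SED5. The ACS2 values of BET1 and SED5 lie near the 214 of STE3 in ACS2, a gene that the genotype would put at background. Their folds, and so this split, are uncertain. SEC20, for a SNARE of return traffic to the ER, read 272 in acs2-Ts1 and 660.1 in ACS2, 2.43-fold lower.

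SNARE complexes are taken apart after fusion by Sec18, an ATPase, with its adaptor Sec17. SEC18 (YBR080C) read 455 in acs2-Ts1 and 1356 in ACS2, 2.98-fold lower, and SEC17 (YBL050W) read 597 in acs2-Ts1 and 1146 in ACS2, 1.92-fold lower. The log2 ratio of SEC17 lies 0.63 above that of SEC18.

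The log2 ratio depended on signal strength across the arrays, and the secretory genes are mostly bright: 45 of 50 were at or above the median intensity of all genes, and 31 at or above the 75th percentile. Over the 50 genes the log2 ratio and the mean log2 intensity had Pearson's r = 0.64 and Spearman's rho = 0.68 (n = 50 genes on the same arrays, a description only, as the mean holds both values of the ratio). With the trend removed, r was -0.02. Gene length had no comparable relation, with r = -0.04 to the log2 ratio. Relative to the curve, 35 of 50 genes (70.0%) lay below it, against 50.9% of all genes, and their median deviation was -0.22.

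Step by step, the median deviation from the curve was -0.52 for signal peptidase, -0.48 for cargo receptors, -0.46 for COPII, -0.22 for fusion, -0.12 for COPI, -0.10 for the signal recognition particle and -0.0092 for the translocon. For signal peptidase it was -0.43 with SPC1 at the background limit and -0.48 without SPC1, so signal peptidase, cargo receptors and COPII cannot be ranked. Cargo receptors and COPII, whose medians sat near the all-gene median as deposited, had medians below the curve for genes of like brightness. The lowest deviations were -0.93 for SPC2, -0.84 for ERP1, -0.71 for ERV29, -0.71 for BOS1 and -0.67 for SEC22. SSS1 had the highest, at 0.79, followed by SED5 (0.50), BET1 (0.48), ARF2 (0.45) and SEC61 (0.35). The deviations of SED5 and BET1 are uncertain, since their ACS2 values lie near that of STE3. Of the Sec61 complex, SEC61 and SSS1 thus lay above the curve, while SBH1 deviated by -0.0092. Of all genes in the brightest intensity decile, 6.42% were at least 2-fold lower, and 3 of the 12 secretory genes there were, namely ERP1, ERV29 and ERV46. ERP1 and ERV46, at the 90.2 and 90.1 percentiles of intensity, sit at the lower edge of that decile. In the next decile the share was 36.9% of all genes, and 5 of 16 secretory genes.

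**Figure D3:**
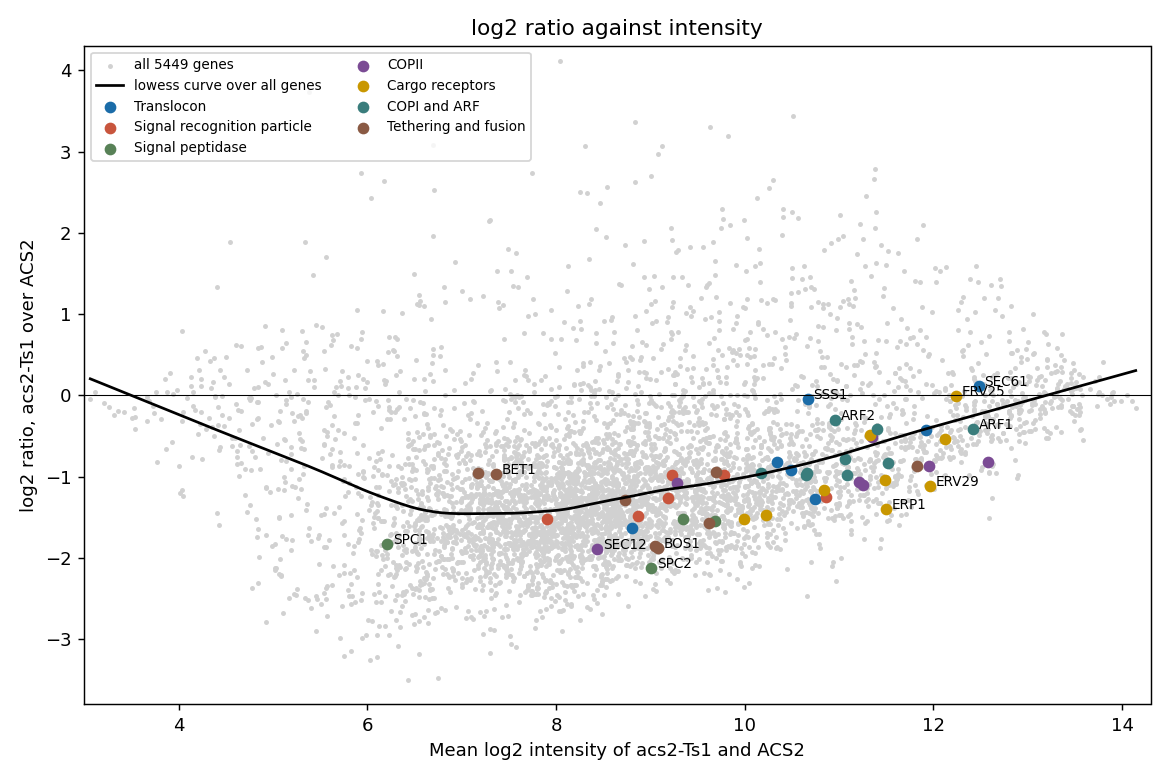
log2 ratio of acs2-Ts1 over ACS2 (y axis) against mean log2 intensity (x axis) for all 5449 genes in grey, with the lowess curve in black and the 50 genes coloured by step. The curve climbs from the middle of the range and passes 0 at the brightest end; SEC61, SSS1, ARF2 and ERV25 lie above it, and ERP1, ERV29, BOS1, SEC12 and SPC2 lie below it.

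Other genes of the early secretory pathway, 69 in 8 lists, were read to place the 50 genes among their neighbours. Of these, 48 (69.6%) were at least 2-fold lower, against 55.9% of all genes, 0 were at least 2-fold higher, and the median log2 ratio was -1.24. Tethers and the TRAPP complex, which catch vesicles before fusion, had 12 of 14 genes at least 2-fold lower (median -1.37), in a list that also holds SED4. USO1, for the long coiled-coil tether of COPII vesicles, had the lowest ratio of all genes in these lists, with 91.1 in acs2-Ts1 and 572 in ACS2, 6.28-fold lower. TRS33, a TRAPP subunit gene, read 161 in acs2-Ts1 and 582 in ACS2, 3.63-fold lower. GRH1, for the yeast relative of mammalian Golgi stacking proteins, and TRS31, also of TRAPP, had the highest ratios of the list, at -0.46 and -0.64.

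Tethers and SNAREs that act in return traffic and within the Golgi had 9 of 10 genes at least 2-fold lower and a median of -1.34. The share of all genes was 55.9%, and with the trend removed 5 of these 10 genes lay below the curve. SEC39, for a subunit of the Dsl1 tether, read 75.7 in acs2-Ts1 and 348 in ACS2, 4.60-fold lower. Its acs2-Ts1 value is no higher than the 77.5 of the deleted LEU2, so that fold is uncertain. The Golgi SNARE gene GOS1 read 196 in acs2-Ts1 and 683 in ACS2, 3.49-fold lower. The highest ratios were those of VTI1, 1.86-fold lower, and TIP20, 2.08-fold lower. These tether and SNARE lists lay below the fusion genes among the 50, whose median was -1.13. With the trend removed the order turned, with medians of -0.11 and -0.10 for these lists and -0.22 for the fusion genes, and the difference was not tested.

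Regulators of the ARF GTPases had 7 of 10 genes at least 2-fold lower, against 55.9% of all genes, with a median of -1.31. The brighter ARF1 and ARF2 were not 2-fold lower. With the trend removed, the regulator median was -0.16, beside -0.16 for ARF1 and 0.45 for ARF2. GEA1, for an exchange factor that activates ARF, read 185 in acs2-Ts1 and 803 in ACS2, 4.35-fold lower. The ARF-like GTPase gene ARL3 read 57.1 in acs2-Ts1 and 251 in ACS2, 4.40-fold lower. The acs2-Ts1 value of ARL3 lies below the 77.5 of the deleted LEU2, so its fold is uncertain. AGE1, for an ARF GTPase-activating protein, read 377 in acs2-Ts1 and 284 in ACS2, a log2 ratio of 0.41, and GLO3, of the same class, was 1.91-fold lower. The GET genes, which insert tail-anchored proteins such as SNAREs into the ER, had 5 of 6 genes at least 2-fold lower, with a median of -1.43. The share of all genes was again 55.9%, and with the trend removed the median of this list was -0.51. GET1 and GET4 were 3.27-fold and 3.03-fold lower and SGT2 2.59-fold, whereas MDY2 read 1171 in acs2-Ts1 and 831 in ACS2, a log2 ratio of 0.49.

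The signal recognition particle docks at the ER on a receptor, whose membrane subunit gene YKL154W read 210.3 in acs2-Ts1 and 750.5 in ACS2, 3.57-fold lower. In the same list of 9 genes, 5 were at least 2-fold lower (median -1.02), against 55.9% of all genes. The ER chaperone gene KAR2 of this list read 11437 in acs2-Ts1 and 11273 in ACS2. Kar2 pulls chains through the channel, and its ratio of 0.02 as deposited lies beside those of SEC61 and SSS1. With the trend removed, KAR2 was at -0.07, against 0.35 for SEC61 and 0.79 for SSS1. SIL1, for a nucleotide exchange factor of Kar2, read 1719 in acs2-Ts1 and 1059 in ACS2, 1.62-fold higher. LHS1, for another exchange factor of Kar2, read 247 in acs2-Ts1 and 755 in ACS2, 3.06-fold lower. The log2 ratios of these exchange factors thus had opposite signs, although SIL1 did not reach 2-fold.

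The unfolded protein response, which raises ER folding and transport genes when unfolded chains build up, was read through 9 genes. At least 2-fold lower were 4 of them, against 55.9% of all genes, and the median was -0.70. None was at least 2-fold higher, against 3.67% of all genes. HAC1, for the transcription factor of the response, read 10309 in acs2-Ts1 and 6531 in ACS2, 1.58-fold higher. Hac1 is switched on by splicing of its transcript, which a single probe set does not report here. PDI1, for the disulfide isomerase, read 12060.4 in acs2-Ts1 and 11132 in ACS2, a log2 ratio of 0.12. The lowest of the list were FPR2, 2.34-fold lower, and DER1, 2.29-fold lower. As deposited, HAC1, PDI1 and KAR2 lay above 0 and the other 6 genes below it. These 3 genes are the brightest of the list, at the 97.6, 99.4 and 99.2 percentiles of intensity. PDI1 and KAR2 lay within the control SD of 0. With the trend removed, HAC1 was at 0.72, PDI1 at 0.015 and KAR2 at -0.07, and 5 of 9 genes lay above the curve.

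Of 4 retrieval and retention factors, 3 were at least 2-fold lower, against 55.9% of all genes. ERD2, for the receptor that returns ER residents bearing a retention signal, read 1606 in acs2-Ts1 and 2609 in ACS2, 1.62-fold lower. ERD1, 2.97-fold lower, and RER1, 2.65-fold lower, had the lowest ratios, and SVP26 was 2.47-fold lower.

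**Figure D4:**
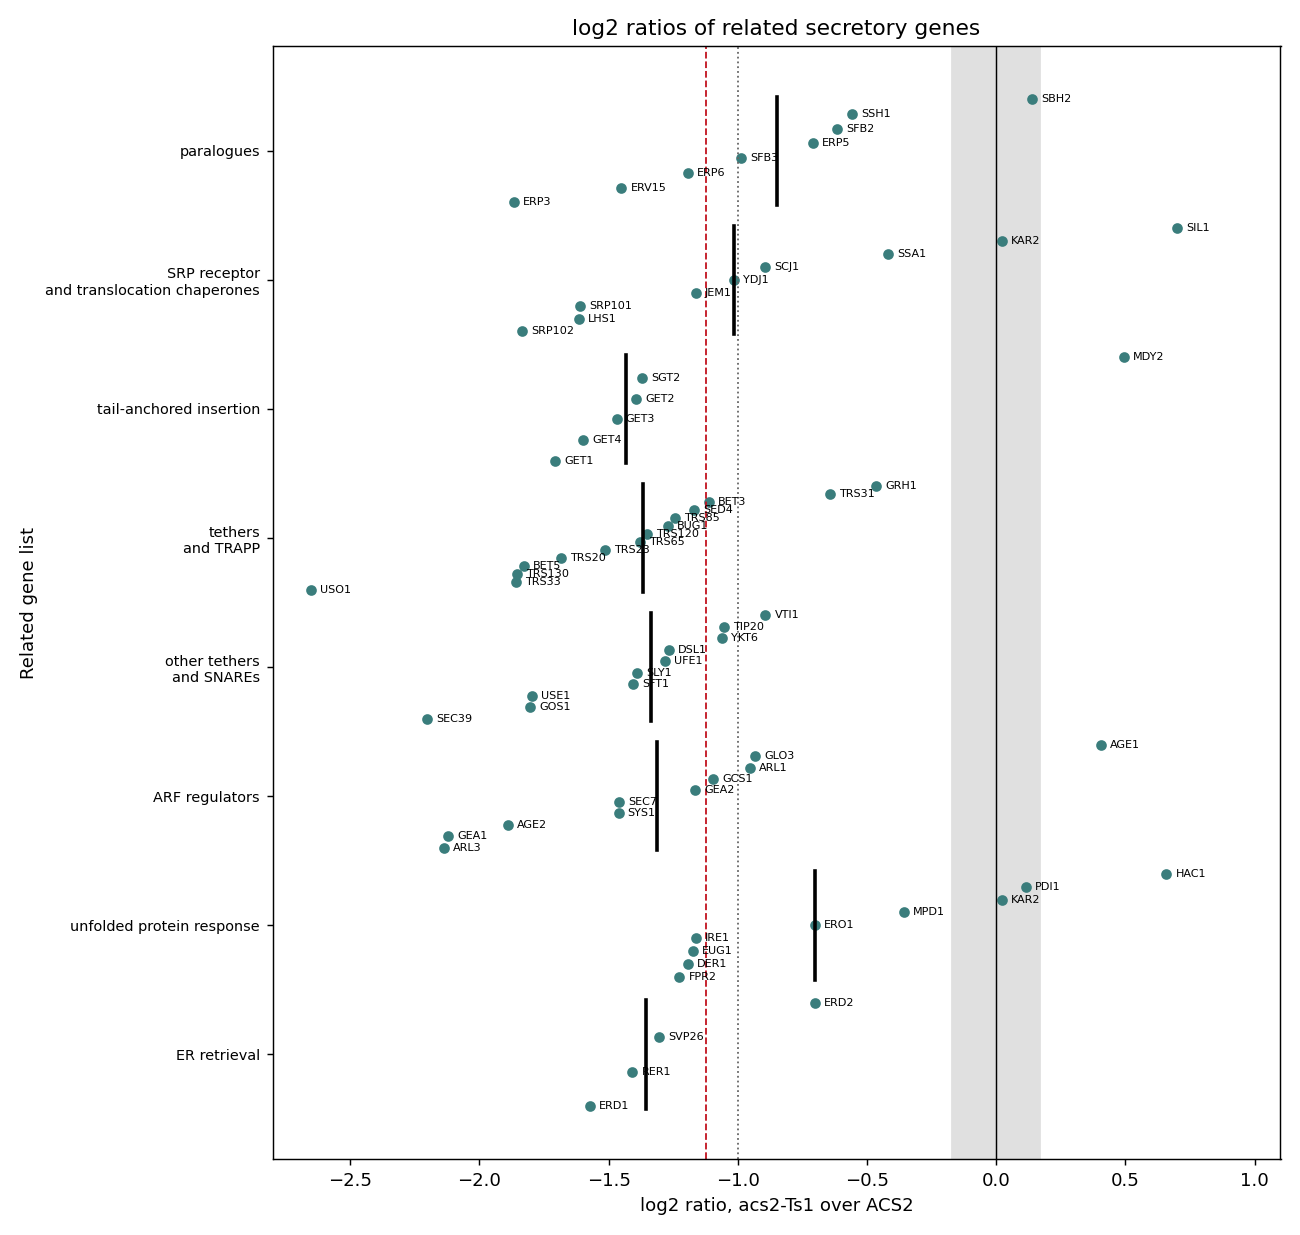
log2 ratio of acs2-Ts1 over ACS2 (x axis) for 69 related secretory genes in 8 lists (KAR2 stands in both the chaperone and the unfolded protein response rows), with list medians as black bars; the red dashed line is the all-gene median, the dotted line a 2-fold lower level, and the grey band 1 SD (0.17) of the hybridization controls around 0. USO1 lies farthest to the left, and SIL1, HAC1, MDY2 and AGE1 lie to the right of the grey band.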

How the data were processed

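Total RNA of 1 culture sample per strain was read on Affymetrix yeast arrays, 4 arrays in all. Per the labels, the authors applied the background correction of RMA, averaged the 2 arrays of each strain and normalized with a lowess curve through controls, and deposited linear probe set intensities. The sources used here do not give which controls served or the software versions, and the spread between the 2 arrays of a strain cannot be recovered from their mean. The log2 ratio was that of acs2-Ts1 over ACS2 with no pseudocount, and a gene with several probe sets took the brightest one without a suffix letter, which touches none of the 50 genes.

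Of 10928 probe sets, 5498 were for genes of the species and covered 5449 genes. Names came from the platform annotation and the RefSeq gene table, with no coordinates used, since the files name no build. The lowess curve of log2 ratio on mean log2 intensity had a span of 0.3 (statsmodels 0.14.6, pandas 2.3.3) and was tested on simulated data. Alternatives were centring on all genes or on hybridization controls, removing the curve, adding 32 to both values, averaging probe sets, keeping brighter genes, and fold thresholds of 1.5 and 3. With 1 sample per strain, the precision of the ratios is unknown. Leaving out SPC1, or setting it to the background limit, was added after the data were seen.

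The 50 genes and the related lists were chosen with earlier results of these data known. All 50 genes are named, and of each related list the 2 highest and 2 lowest log2 ratios plus every paralogue. No fold is given where a value lies under the background limit.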

Additional observations from a re-analysis of the deposited data

How the results depend on the processing

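Counts and levels depend on where 0 is set, and 1 deposited mean per strain leaves the size of array error unknown. No paired analysis was possible because each strain has 1 sample. Centred on the all-gene median, 0 genes were at least 2-fold lower and 3 higher, and the median log2 ratio was 0.14 for all 50 genes, 0.30 for the translocon, -0.13 for the signal recognition particle, -0.56 for signal peptidase, 0.29 for COPI and -0.00092 for fusion. The medians of COPII (0.058) and cargo receptors (0.015) turned positive too. So did 30 genes, which follows from subtracting the all-gene median; those that had been at least 2-fold lower were SEC16 (0.044), SEC24 (0.017), SEC31 (0.058), ERV29 (0.015) and ERV46 (0.085). With the trend on intensity removed, 0 genes were at least 2-fold lower, and the medians were -0.22 for all 50 genes, -0.0092 for the translocon, -0.10 for the signal recognition particle, -0.52 for signal peptidase, -0.46 for COPII, -0.48 for cargo receptors, -0.12 for COPI and -0.22 for fusion. There 14 genes turned positive, of which SEC16 (0.060) had been at least 2-fold lower. Adding 32 to both values gave -1.47 for signal peptidase, and keeping genes at or above the median intensity gave -1.43 for fusion, with fewer genes tested. Thresholds of 1.5-fold and 3-fold gave 40 and 6 lower genes. Centring on the hybridization controls, or averaging all probe sets of a gene, moved none of the 10 counts and medians by more than the control SD or 1.5 times.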
